A study of Mus musculus with 8 samples.

Results

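The genes described here encode the cyclin-dependent kinase (CDK) inhibitors Cdkn1a, Cdkn1b, Cdkn1c, Cdkn2a, Cdkn2b, Cdkn2c and Cdkn2d. They were taken as every probe set of the deposited array table whose platform annotation carries 1 of these symbols, alone or among several. This gave 8 probe sets for 7 genes, out of 35556 probe sets in all, whose annotation names 21335 genes. Cdkn1b has 2 probe sets, and the probe set of Cdkn1a also carries the symbol 4930567H12Rik, so the signals of these transcripts cannot be told apart.

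RNA of primary embryonic fibroblasts, connective tissue cells grown from mouse embryos, was hybridised to Affymetrix arrays; there were 2 lines. The groups were line B (MEF16) with tamoxifen, line B without, line A (MEF10) with tamoxifen and line A without, with 2 arrays in each and 8 in all. By their titles, the cells expressed the PKM1 isoform of pyruvate kinase with tamoxifen and the PKM2 isoform without it. The question put to the arrays is how transcript levels with PKM1 differ from those with PKM2. The labels used here give no tamoxifen dose or time, no allele beyond the isoform, and no control for tamoxifen itself. Tamoxifen and the isoform therefore cannot be told apart.

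CDK inhibitors bind cyclin-dependent kinases or their cyclin complexes and slow the cell cycle. The Cip/Kip proteins p21 (Cdkn1a), p27 (Cdkn1b) and p57 (Cdkn1c) bind cyclin-CDK complexes broadly. The INK4 proteins p16 (Cdkn2a), p15 (Cdkn2b), p18 (Cdkn2c) and p19 (Cdkn2d) bind the kinases partnered by D-type cyclins. In cultured fibroblasts, p21 is a known target of the transcription factor p53, and p16 and the alternative product Arf of Cdkn2a are known to accumulate as cells approach senescence.

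Values are log2 expression as the authors normalized it, differences are log2 fold changes with standard errors (SE) from limma, and a call is an adjusted p under 0.05 over all 35556 probe sets. The medians of the 8 arrays lay between 7.17 and 7.24. The 2 arrays of a group correlated at 0.9859 in line B with tamoxifen, 0.9854 in line B without, 0.9945 in line A with and 0.9932 in line A without. Pairs of line B arrays were the less alike. Nothing in the labels tells if both arrays of a group had their own culture; p-values here rest on the spread between the arrays alone, and that spread may be technical. The description and extraction fields name mammary tumors, but titles and source name fibroblasts. The mean over 10 fibroblast markers lay between 10.48 and 10.83 on the 8 arrays. That over 10 mammary and other epithelial markers lay between 6.76 and 6.92. These means come from different probes, so they are no measure of cell shares.

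Cdkn2c had the largest difference with tamoxifen of the 8 probe sets and was lower in both lines, Cdkn1b was lower, and Cdkn1c and Cdkn2b were slightly higher. Cdkn1a, Cdkn2a and Cdkn2d differed by at most 0.10 over both lines. None of these differences passed in limma over all probe sets. With tamoxifen over both lines, 0 of the 8 probe sets were called, where 0.208% of all probe sets were (74, of which 51 were higher and 23 lower). At an unadjusted p under 0.05 there were 4 of 8, the first Cdkn1b probe set, Cdkn1c, Cdkn2b and Cdkn2c, against 2858 of 35556 over all. The median change of the 7 genes was 0.00, beside -0.01 over all probe sets. For 3 of the 8 probe sets there was no overlap between the 4 tamoxifen arrays and the other 4, as for 4.72% of all probe sets. Within each line, and in the same direction in both, the arrays did not overlap for 4 of the 8, against 8.16% of all.

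**Figure D1:**
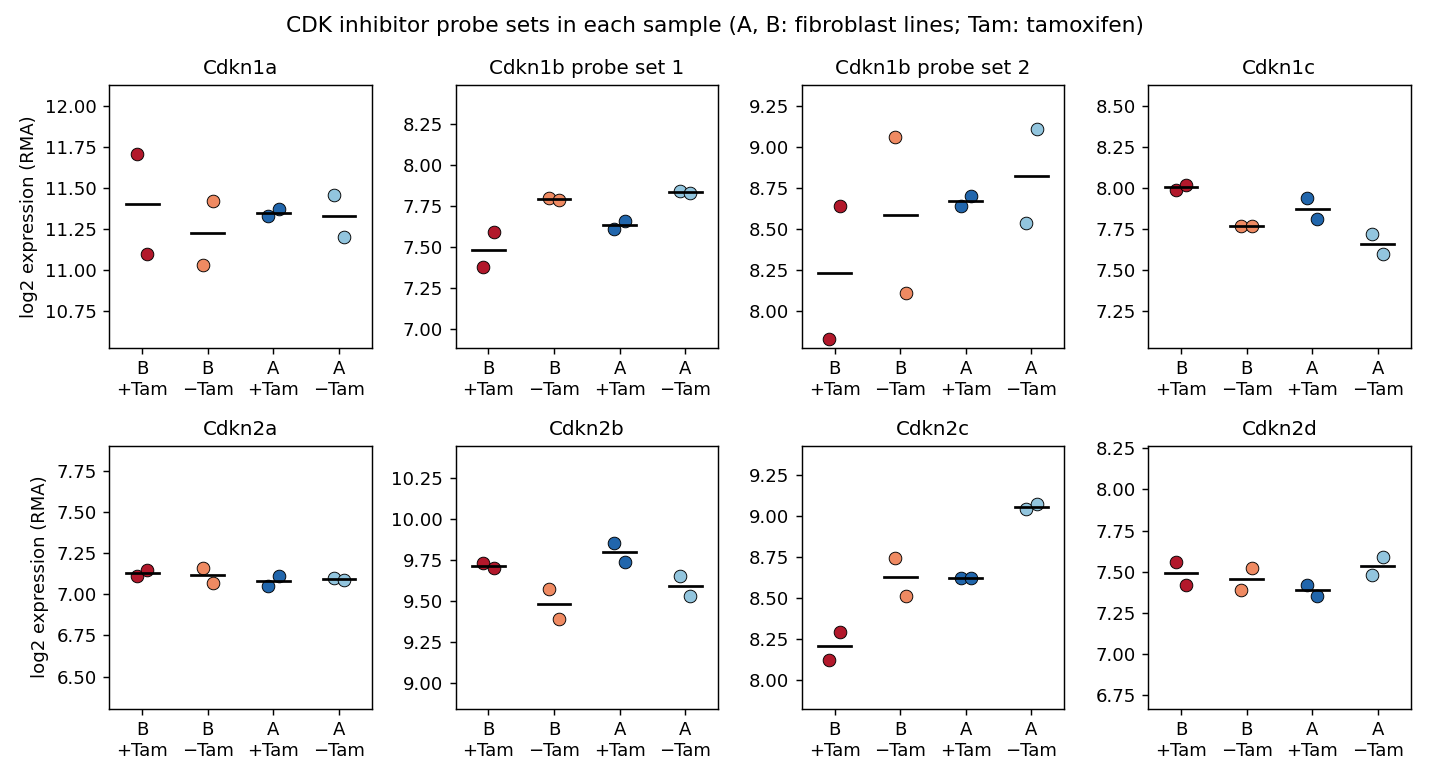
The log2 expression of each of the 8 probe sets is plotted by group, with tamoxifen left of without and line B left of line A; points are single arrays, bars are group means of 2, and every panel spans a range of the same width. Cdkn2c is lowest in line B with tamoxifen (8.12 and 8.29) and highest in line A without (9.04 and 9.07), while Cdkn2a stays between 7.05 and 7.16.

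Among the Cip/Kip genes, Cdkn1a, whose product p21 halts the cycle after DNA damage, showed no difference beyond the spread between arrays. It was at 11.71 and 11.10 in line B and 11.33 and 11.37 in line A with tamoxifen, and at 11.03 and 11.42 in line B and 11.46 and 11.20 in line A without. Its highest and its second lowest value belong to the same group, line B with tamoxifen, and the groups overlap in both lines. The difference over both lines was 0.10 (SE 0.15, n = 8 arrays, adjusted p = 0.92), with a 95% interval from -0.24 to 0.45. It was 0.18 (SE 0.22) in line B and 0.02 (SE 0.22) in line A, and without line B with tamoxifen replicate 1 the value over both lines was -0.04. The pair of arrays in line B with tamoxifen lay 0.61 apart, while the 4 group means span 0.18.

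Cdkn1a is transcribed from more than 1 start, and the 250 bases before each are shown because the first window holds a pair of p53 core letters, and p53 is the best known regulator of this gene. The sequences are RefSeq's for build GRCm38.p6, read 5′ to 3′ on the plus strand, at chr17:29090729-29090978 for the first start and chr17:29093519-29093768 for the second.
Cdkn1a start 1: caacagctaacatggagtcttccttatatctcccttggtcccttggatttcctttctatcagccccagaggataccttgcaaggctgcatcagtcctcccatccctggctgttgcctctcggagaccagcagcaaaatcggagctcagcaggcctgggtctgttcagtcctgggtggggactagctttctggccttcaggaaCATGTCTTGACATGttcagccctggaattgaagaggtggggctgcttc
Cdkn1a start 2: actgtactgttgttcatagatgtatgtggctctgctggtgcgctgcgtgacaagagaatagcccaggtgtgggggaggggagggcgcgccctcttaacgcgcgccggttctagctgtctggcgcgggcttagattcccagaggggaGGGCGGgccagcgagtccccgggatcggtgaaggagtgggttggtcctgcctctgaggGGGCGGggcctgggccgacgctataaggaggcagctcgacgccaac
Capitals mark matches, on either strand, to CATG followed by any 6 bases and another CATG, the core letters of a pair of p53 half-sites, which reads the same on both strands, or to GGGCGG, a GC box known to bind Sp1 factors. The first motif begins 48 bases before the first start, and windows with it make up 0.49% of 32851 promoter windows of 250 bases. The second window has 2 GC boxes, a motif found in 32.7% of windows. The arrays cannot say which start was used, since 1 probe set stands for both RefSeq transcripts.

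The genes whose values most resembled those of Cdkn1a over the 8 arrays were Crip2, which encodes a LIM domain protein (Pearson r = 0.988), the interferon-induced membrane protein gene Ifitm2 (0.985) and the progranulin gene Grn (0.974). These correlations describe 8 arrays, were picked as the highest among 15460 candidate probe sets, and share the spread within groups. Crip2 was at 9.03 and 8.06 in line B with tamoxifen and at 7.98 and 8.68 in line B without. The values of Crip2 thus part the arrays of one group in the same way as those of Cdkn1a. This split was not particular to these genes. Pdgfrb was at 10.13 and 9.05 in line B with tamoxifen and at 9.54 and 10.30 without. Tfdp2 split the opposite way, at 9.25 and 9.75 with and 9.63 and 8.95 without. The number of probe sets with either split was not counted. The second Cdkn1b probe set ran the other way, with r = -0.84 against Cdkn1a.

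**Figure D2:**
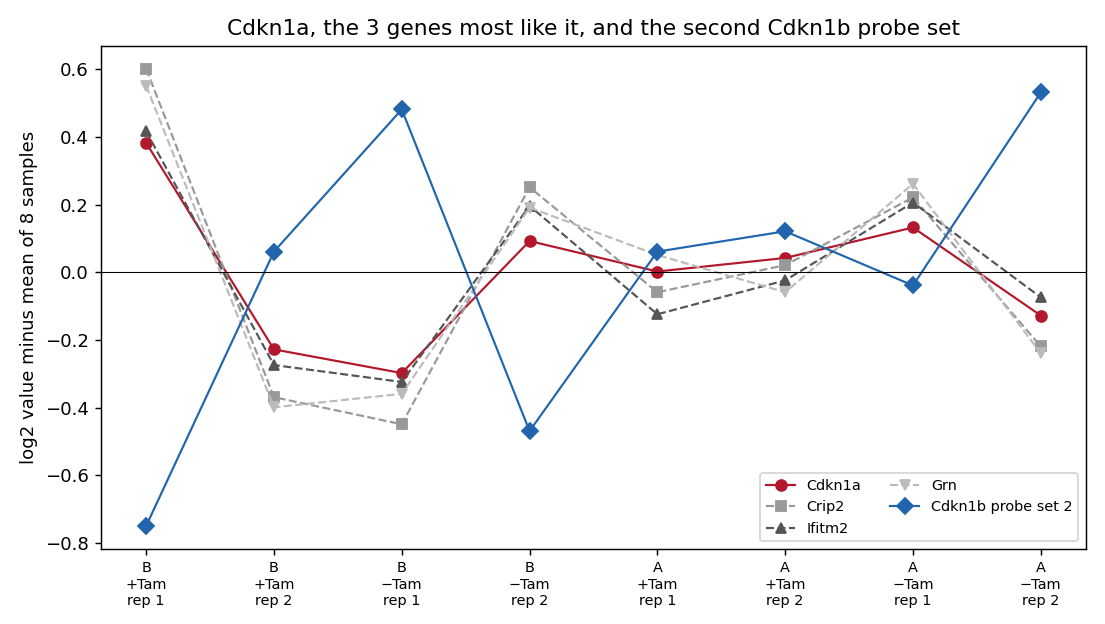
Each line gives a probe set's log2 value minus its own mean over the 8 arrays, with line B left of line A and tamoxifen left of none; Tam is tamoxifen and rep a replicate. Cdkn1a, Crip2, Ifitm2 and Grn are high in replicate 1 and low in replicate 2 of line B with tamoxifen, and the second Cdkn1b probe set is low in that replicate 1 (7.83 on the log2 scale).

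Cdkn1b encodes p27, which holds back CDK2 complexes in quiescent cells and is controlled largely through protein turnover. Its first probe set was at 7.38 and 7.59 in line B and 7.61 and 7.66 in line A with tamoxifen, against 7.80 and 7.79 in line B and 7.84 and 7.83 in line A without. All 4 arrays with tamoxifen lay below all 4 without. The difference was -0.25 (SE 0.07, adjusted p = 0.31, 95% interval -0.41 to -0.10), -0.31 (SE 0.10) in line B and -0.20 (SE 0.10) in line A.

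The second Cdkn1b probe set gave a difference of -0.26 (SE 0.25, adjusted p = 0.88). Leaving out 1 array moved this value between -0.43, without line B no tamoxifen replicate 2, and -0.05, without line B no tamoxifen replicate 1; it was -0.07 without line B tamoxifen replicate 1, -0.40 without line B tamoxifen replicate 2, -0.39 without line A no tamoxifen replicate 1 and -0.16 without line A no tamoxifen replicate 2. It was at 7.83 and 8.64 in line B and 8.64 and 8.70 in line A with tamoxifen, and at 9.06 and 8.11 in line B and 8.54 and 9.11 in line A without. Its arrays overlap in both lines and its SD within groups exceeded that of 96.7% of all probe sets. The probe sets correlated at r = 0.61 over the 8 arrays.

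Cdkn1c, which encodes p57 and is an imprinted gene expressed from the maternal copy in mouse, was at 7.99 and 8.02 in line B and 7.94 and 7.81 in line A with tamoxifen. Without it the values were 7.77 and 7.77 in line B and 7.72 and 7.60 in line A. The 4 arrays with tamoxifen lay above the 4 without. The difference was 0.23 (SE 0.06, adjusted p = 0.33, 95% interval 0.08 to 0.37), 0.24 (SE 0.10) in line B and 0.21 (SE 0.10) in line A. Its measured neighbours on chromosome 7, the potassium channel gene Kcnq1 and the transporter gene Slc22a18, differed by -0.15 (SE 0.07) and 0.01 (SE 0.09) and neither passed.

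Among the INK4 genes, Cdkn2c, whose product p18 binds CDK4 and CDK6 and whose transcript is known to be raised by E2F factors, was lower by 0.43 with tamoxifen (SE 0.07, 1.34-fold lower, 95% interval -0.60 to -0.26). It was at 8.12 and 8.29 in line B and 8.62 and 8.62 in line A with tamoxifen, against 8.74 and 8.51 in line B and 9.04 and 9.07 in line A without. Within each line both arrays with tamoxifen lay below both without. Over all 8 arrays they overlap, since line A with tamoxifen had the level of line B without. The difference was -0.42 (SE 0.11) in line B and -0.43 (SE 0.11) in line A, and the difference between those was 0.01 (SE 0.16, 95% interval -0.37 to 0.39).

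For Cdkn2c the call depended on which probe sets were tested and on whether the arrays were weighted. Over all 35556 probe sets the adjusted p in limma was 0.099, and it ranked 162nd by p. Over the probe sets with a gene symbol alone the adjusted p was 0.026, over 1 probe set per gene symbol entry 0.021, and with array weights 0.018. In the other 14 of 17 alternatives it was not called, and the difference lay between -0.48 and -0.38 in all 17.

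The windows before the annotated starts of Cdkn2c are shown because this gene had the largest difference; they are RefSeq's for GRCm38.p6, on the minus strand, at chr4:109666757-109667006 and chr4:109665373-109665622, read 5′ to 3′.
Cdkn2c start 1: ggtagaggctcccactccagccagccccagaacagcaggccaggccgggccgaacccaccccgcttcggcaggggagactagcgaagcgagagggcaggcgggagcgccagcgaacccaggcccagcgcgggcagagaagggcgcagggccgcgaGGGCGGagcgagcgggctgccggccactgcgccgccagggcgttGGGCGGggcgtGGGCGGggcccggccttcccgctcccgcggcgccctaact
Cdkn2c start 2: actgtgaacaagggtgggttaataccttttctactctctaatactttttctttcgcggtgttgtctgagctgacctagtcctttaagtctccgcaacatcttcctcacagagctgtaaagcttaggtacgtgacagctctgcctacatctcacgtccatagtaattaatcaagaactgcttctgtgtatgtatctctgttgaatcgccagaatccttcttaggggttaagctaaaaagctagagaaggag
Capitals mark GC boxes, of which the first window holds 3 and the second none. TTTNNCGC, a relaxed form of the E2F site that was searched on both strands in every window, and TATAAA have no match in either window. The E2F letters occur in 4.28% of all windows and TATAAA in 12.4%. Of the 7 genes, 6 had windows in the table, 9 windows in all; the E2F letters matched only in the 2 windows of Cdkn2a, and the p53 letters only in the first of Cdkn1a.

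Cdkn2b, which encodes p15 and is known to respond to transforming growth factor beta, was at 9.73 and 9.70 in line B and 9.85 and 9.74 in line A with tamoxifen, against 9.57 and 9.39 in line B and 9.65 and 9.53 in line A without. The 4 arrays with tamoxifen lay above the 4 without, by a narrow margin. The difference was 0.22 (SE 0.07, adjusted p = 0.43, 95% interval 0.06 to 0.38), 0.23 (SE 0.10) in line B and 0.21 (SE 0.10) in line A.

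Cdkn2a lies next to Cdkn2b on chromosome 4 and encodes p16 and Arf from different first exons. Its single probe set is annotated with the RefSeq transcripts of both products. It was at 7.11 and 7.15 in line B and 7.05 and 7.11 in line A with tamoxifen, and at 7.16 and 7.07 in line B and 7.10 and 7.09 in line A without. The groups overlap, and the difference was 0.00 (SE 0.06, 95% interval -0.13 to 0.13). No detection calls were used, so these values do not show whether Cdkn2a was expressed; its SD within groups exceeded that of only 2.82% of all probe sets. Mtap and Dmrta1, the other measured neighbours of this pair of genes, differed by 0.02 (SE 0.07) and 0.00 (SE 0.07).

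Cdkn2d, which encodes p19 of the INK4 family, was at 7.56 and 7.42 in line B and 7.42 and 7.35 in line A with tamoxifen, and at 7.39 and 7.52 in line B and 7.48 and 7.59 in line A without. The arrays overlap in line B but not in line A, and the differences were 0.03 (SE 0.10) and -0.15 (SE 0.10) in these lines. Over both lines the difference was -0.06 (SE 0.08, adjusted p = 0.91).

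**Figure D3:**
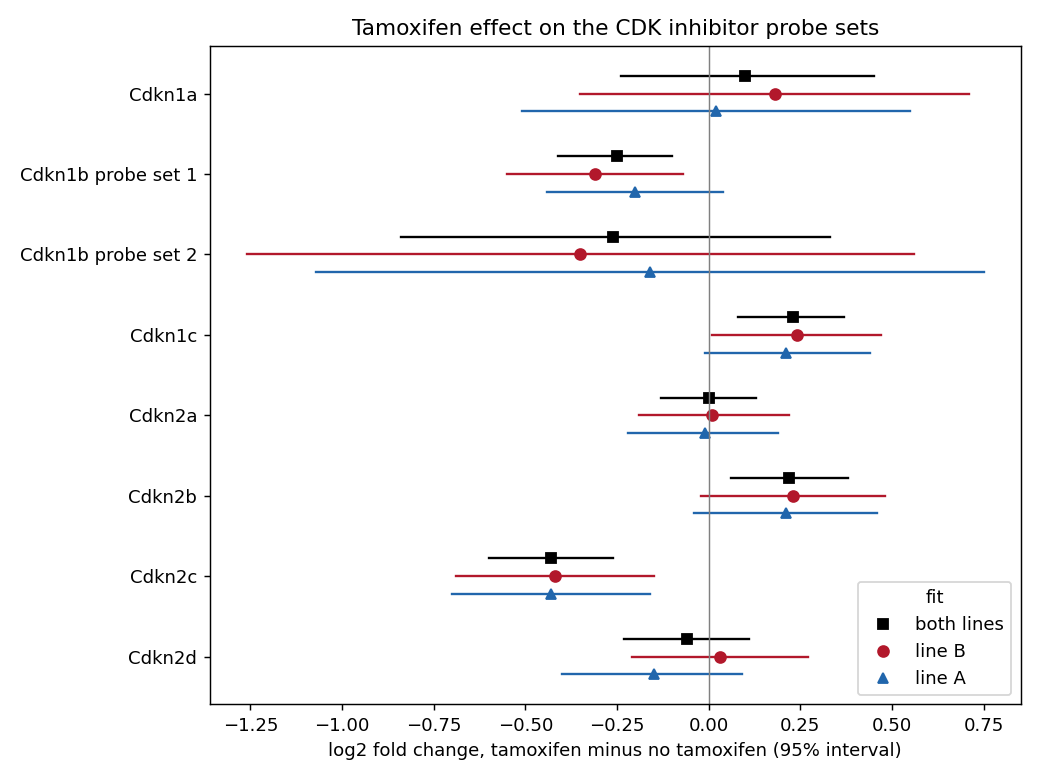
Log2 fold changes, tamoxifen minus no tamoxifen, are drawn with 95% intervals for each probe set, from the fit over both lines (squares), in line B (circles) and in line A (triangles). The intervals over both lines exclude 0 for Cdkn2c, the first Cdkn1b probe set, Cdkn1c and Cdkn2b before any adjustment, and that of the second Cdkn1b probe set runs from -0.84 to 0.33.

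Taken line by line, 0 of the 8 probe sets were called in line B, where 0% of all probe sets were, and 0 in line A, where 0.00281% were (1 probe set). At an unadjusted p under 0.05 there were 3 of 8 in line B, the first Cdkn1b probe set, Cdkn1c and Cdkn2c, against 1709 of 35556 over all. In line A there was 1 of 8, Cdkn2c, against 2324 of 35556. Tested directly, the tamoxifen effect in line B minus that in line A gave 0 calls of 8 and 0% of all, with 0 of 8 members and 1236 of all probe sets at an unadjusted p under 0.05. The largest such differences among the members were those of the second Cdkn1b probe set (-0.19, SE 0.54), Cdkn2d (0.18, SE 0.14) and Cdkn1a (0.16, SE 0.32), and the 95% interval of each includes 0.

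Between the lines, Cdkn2c was lower in line B than in line A, by the same amount as with tamoxifen. The difference over both treatments was -0.43 (SE 0.07, adjusted p = 0.086, 95% interval -0.60 to -0.25), -0.42 (SE 0.11) with tamoxifen and -0.43 (SE 0.11) without. Ordered by group mean, Cdkn2c was at 8.20 in line B with tamoxifen, 8.62 in both line B without and line A with, and 9.06 in line A without. The groups at 8.62 do not differ beyond their spread. Over the probe sets with a gene symbol alone the line difference passed (adjusted p = 0.023), as it did with array weights (0.039) and with 1 probe set per symbol entry (0.019). Of the 8 member probe sets 0 were called between the lines over both treatments, where 0.337% of all were, 0 with tamoxifen (0.163% of all) and 0 without (0.00844% of all). At an unadjusted p under 0.05 there was 1 of 8 in each of these, Cdkn2c, against 2492, 1990 and 1852 of 35556 over all. In 0 of the 8 did the 4 arrays of line B and the 4 of line A not overlap, against 4.13% of all probe sets. The other member differences between the lines ran from -0.34 (second Cdkn1b probe set, SE 0.25) to 0.12 (Cdkn1c, SE 0.06).

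Markers of other cell types, and some of fibroblasts, differed between the lines. The mean over 10 macrophage and blood cell markers lay between 7.06 and 7.20 in line B and between 6.58 and 6.71 in line A. The lysozyme gene Lyz2 (1.83, SE 0.17, adjusted p = 0.010) and the macrophage gene Adgre1 (0.59, SE 0.07, adjusted p = 0.020) were called higher in line B, and the other 8 were not called. Adgre1 was dim, between 5.45 and 6.34 on the 8 arrays, where the 30% dimmest probe sets had means up to 6.34. Of 6 endothelial markers, Emcn was called higher in line B (1.05, SE 0.12, adjusted p = 0.018) and the other 5 were not called. Of 10 fibroblast markers, Thy1 was called higher (0.57, SE 0.06, adjusted p = 0.018) and the lumican gene Lum lower (-1.58, SE 0.19, adjusted p = 0.019) in line B. The part of these genes in the Cdkn2c difference between the lines was not tested. With tamoxifen, 0 of the 10 fibroblast markers were called; Lum was at 1.33 (SE 0.19, adjusted p = 0.053, called in 5 of 17 alternatives), Col1a2 at -0.30 (SE 0.10), Postn at 0.18 (SE 0.06) and Thy1 at 0.15 (SE 0.06). Within a line the macrophage and blood cell means differed less. They were 7.18 and 7.20 with and 7.06 and 7.08 without tamoxifen in line B. In line A they were 6.71 and 6.66 with and 6.69 and 6.58 without. Of these 10 markers 0 were called with tamoxifen over both lines, 6 were positive and 4 negative. Lyz2 was at 0.46 (SE 0.17, adjusted p = 0.53 in limma) over both lines, 0.16 (SE 0.21) in line B and 0.77 (SE 0.21) in line A. In such bulk samples fewer cells of a type and less RNA per cell cannot be told apart.

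The genes around the inhibitors give the setting of these values. All 13 proliferation markers had a negative difference with tamoxifen, with a median of -0.41 beside -0.01 over all probe sets, and 1 was called. This was Mki67, the classic marker of cycling cells, at 9.53 and 9.70 in line B and 9.30 and 9.35 in line A with tamoxifen, against 10.10 and 10.12 in line B and 10.24 and 10.23 in line A without. Mki67 fell by 0.70 (SE 0.10, adjusted p = 0.049). The part of proliferation in the Cdkn2c difference was not tested. The survivin gene Birc5 (-0.50, SE 0.07), the helicase gene Mcm6 (-0.45, SE 0.09) and the checkpoint kinase gene Bub1 (-0.56, SE 0.12) did not pass. Birc5 was called in 5 of the 17 alternatives and Mcm6 and Bub1 in 3 each. Of 11 cyclins and kinases that the inhibitors bind, 0 were called and 8 were negative, with a median of -0.14. Cyclin A2 (Ccna2, -0.67, SE 0.10) and cyclin B2 (Ccnb2, -0.48, SE 0.07) each had an adjusted p of 0.054 and were called in 5 and 4 of 17 alternatives, Ccne2 was at -0.30 (SE 0.12) and Cdk1 at -0.23 (SE 0.09).

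Other p53 targets had a median difference of 0.19, beside -0.01 over all probe sets, with 14 of 21 positive and 7 negative. Of these 21, 1 was called, where 0.208% of all probe sets were. Perp, a membrane protein gene, was at 9.56 and 9.64 in line B and 9.84 and 9.79 in line A with tamoxifen, against 9.17 and 8.95 in line B and 9.28 and 9.35 in line A without, and rose by 0.52 (SE 0.07, adjusted p = 0.042). Mdm2, whose product directs p53 to degradation, differed by 0.35 (SE 0.06, adjusted p = 0.088, called in 3 of 17 alternatives), the death receptor gene Fas by 0.61 (SE 0.13, called in 3) and Trp53inp1 by 0.44 (SE 0.11, called in 1). Cdkn1a, a target of the same factor, had 0.10 (SE 0.15); whether it differs from these genes was not tested. The calls of Mki67 and Perp were lost when any 1 of the 8 arrays was left out, with trend and robust settings, and with line as a random block; that of Perp was also lost after the median shift and with no term for the line. Mki67 was called in 7 and Perp in 5 of 17 alternatives.

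With tamoxifen, no regulator of the inhibitors was called over all probe sets; Dtl and Ezh2 were called in 3 of 17 alternatives each, and Foxo1 and Skp2 in 1 each, with array weights. Of 11 genes for the turnover of Cip/Kip proteins, most of them for parts of ubiquitin ligases, 0 passed and the median was 0.00. Dtl, which directs p21 to degradation, was at -0.33 (SE 0.06), and Skp2, which recognises p27, at -0.29 (SE 0.08). Skp1 (0.33, SE 0.15) and Cks1b (-0.14, SE 0.06) are partners of Skp2. Of 24 transcriptional and Polycomb regulators 0 passed, with a median of -0.02; Ezh2, the methyltransferase that silences the locus of Cdkn2a, was at -0.36 (SE 0.07), and Foxo1, a known activator of Cdkn1b, at -0.29 (SE 0.06). Sp1 was at -0.17 (SE 0.07) and Myc at -0.20 (SE 0.09). Foxo1 was called lower in line B than in line A (-0.42, SE 0.06, adjusted p = 0.036).

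Of 7 other brakes on CDKs 0 passed, 6 were negative and the median was -0.10. Cdkn3, a phosphatase gene that shares the inhibitors' name but not their fold, was at -0.43 (SE 0.10, called in 1 of 17 alternatives), the kinase genes Wee1 and Pkmyt1 at -0.21 (SE 0.07) and -0.10 (SE 0.06), and Cdk2ap2 at -0.15 (SE 0.09). Of 13 genes for pocket proteins, E2F factors and their partners (Tfdp1 and Tfdp2) 0 passed, with a median of -0.04. The repressors E2f7 (-0.36, SE 0.09) and E2f8 (-0.32, SE 0.09) and the pocket protein gene Rbl1 (-0.30, SE 0.09) had negative values, and Rb1 was at 0.40 (SE 0.13). Of 13 imprinted genes other than Cdkn1c 0 passed, with a median of -0.04. Slc38a4 was at -0.61 (SE 0.09), Dcn at 0.88 (SE 0.17), Mest at -0.31 (SE 0.08) and Peg3 at 0.38 (SE 0.09), so they did not share a direction. Slc38a4 (adjusted p = 0.066 in limma) was called in 4 of 17 alternatives, Dcn in 3, Peg3 in 1 and Mest in 0.

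**Figure D4:**
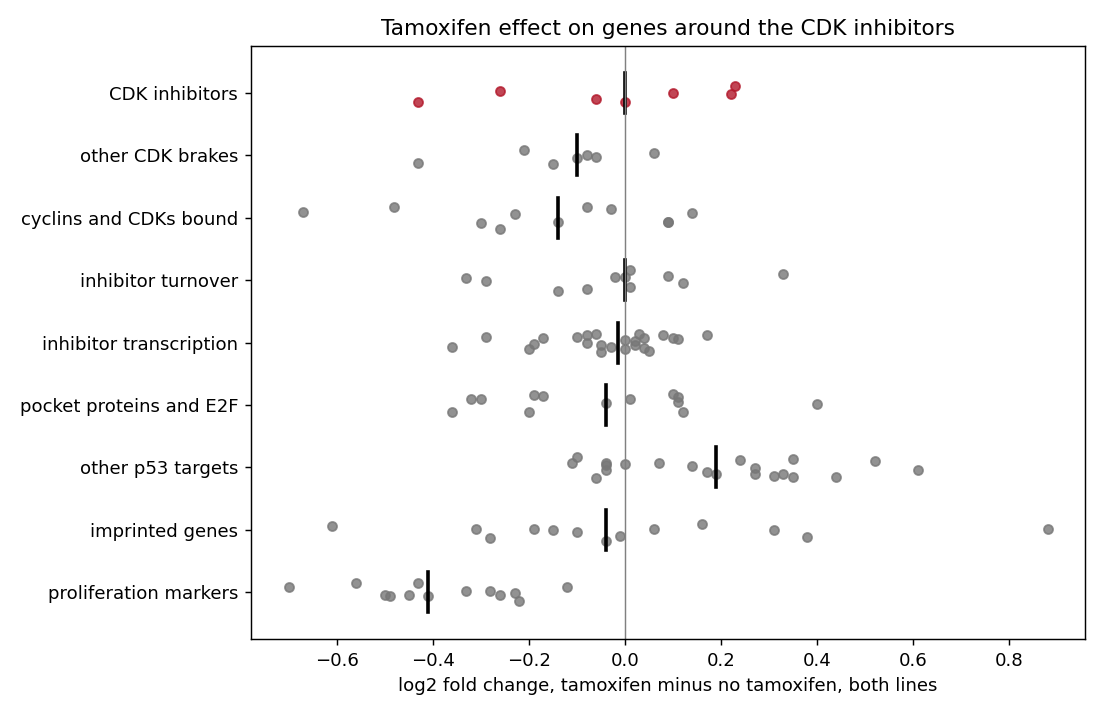
Each point is a gene's log2 fold change, tamoxifen minus no tamoxifen over both lines, by gene list, and the black bar is the list's median; points are shifted vertically so that they can be seen. The inhibitors (top, 7 genes) lie on both sides of 0 with a median of 0.00, and all 13 proliferation markers (bottom) lie below 0.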

How the data were processed

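The authors normalized the array intensities by RMA in Affymetrix Expression Console, per the labels' design text, which names no version. The deposited table holds log2 values, 1 column per sample, and was used without further normalization. RMA can understate differences of dim probe sets. GEO's platform annotation gave 1 symbol for 21789 probe sets, several for 1621 and none here for 12146.

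Tests used limma 3.58.1 in R 4.3.3 (lmFit, eBayes) over all 35556 probe sets, with Benjamini-Hochberg adjustment. Effects over both lines or both treatments were fitted with terms for line and treatment (5 residual degrees of freedom), those within a line or treatment from the 4 group means (4). The number of arrays limits the precision. Only the fit of tamoxifen over both lines was tried on simulated data, with noise independent between probe sets. The check was on the mean estimates of planted effects. Arrays were grouped by title, and replicate numbers follow sample order.

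Members and the 14 gene lists were chosen with earlier results of these data known. A listed gene was represented by its brightest probe set with that symbol alone, or, where there was none, by its brightest with several symbols. Named were all members, from each list described up to 4 genes of lowest p with tamoxifen over both lines, and the 3 genes most like Cdkn1a, from probe sets above the 30% dimmest; genes named for the comparison between lines, other than members, were chosen after their values were seen, and the nearest measured genes beside some members were named outside this rule.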

Additional observations from a re-analysis of the deposited data

How the results depend on the processing

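Alternatives were the settings named here and leaving out each array in turn. No paired analysis was possible because the labels number no replicates. With tamoxifen over both lines, 74 probe sets were called; the count was 49 with arrays shifted to a common median, 114 without the 30% dimmest, 451 with array weights, 260 over probe sets with a gene symbol, 276 with 1 probe set per symbol entry, 36 with no term for the line, 29 with line as a random block, and 2 to 47 without 1 array. Under array weights, gene symbols alone and 1 per entry, 1 member was called, Cdkn2c; the same held between the lines over both treatments. In line A the count of 1 became 0 (median shift; trend and robust; line A arrays alone; without any 1 array), 18 (without the dimmest), 271 (array weights), 180 (gene symbols) and 105 (1 per entry), and in line B the count of 0 became 3 and 3 in those last settings. Between the lines the 120 became 287 and 289 there, and 16 to 115 without 1 array. With tamoxifen the 58 became 37 (median shift), 191 and 104 (the same last settings) and 0 to 34 without 1 array; without tamoxifen the 3 became 7 (quantile), 11 (without the dimmest), 56 and 63, and 0 without any 1 array. Fewer probe sets are tested in the symbol settings; the cause of the other shifts was not tested.

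Of 881 values of 52 other named genes, 49 were newly called and 22 no longer called. Of 627 member values under alternatives, 35 turned their sign and 6 were newly called, all of Cdkn2c. In the difference between the lines in the tamoxifen effect, Cdkn1c and Cdkn2b gave -0.01 and Cdkn2c -0.02 after the median shift. Cdkn2a in line A gave 0.01 after quantile normalization, and Cdkn1a in line B against line A gave 0.06 with array weights. Without 1 array, the tamoxifen effect ran from -0.04 to 0.21 for Cdkn1a over both lines, -0.12 to 0.49 in line B and -0.11 to 0.15 in line A; for the second Cdkn1b probe set from -0.83 to 0.12 in line B and -0.44 to 0.13 in line A; for Cdkn2a from -0.03 to 0.06 and -0.04 to 0.02; and for Cdkn2d from -0.04 to 0.10 in line B. The difference between the lines in that effect ran from -0.14 to 0.46 (Cdkn1a), -0.67 to 0.28 (second Cdkn1b), -0.04 to 0.09 (Cdkn1c), -0.01 to 0.07 (Cdkn2a), -0.07 to 0.12 (Cdkn2b) and -0.11 to 0.13 (Cdkn2c). Line B against line A ran from -0.17 to 0.08 (Cdkn1a) and -0.04 to 0.05 (Cdkn2d). Of the other named genes the muscle markers turned: Des was at -0.02 with array weights and -0.02 to 0.17 without 1 array, and Acta1 at -0.10 to 0.11.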

Other observations

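By a likeness chosen after the values were seen, the genes that most resembled Cdkn2c over the 8 arrays were the collagen gene Col11a1 (Pearson r = 0.997), the kinase gene Sgk1 (0.995) and the collagen gene Col5a2 (0.981), the 3 highest of 15460 candidates, given as a description. Sgk1 was at 7.95 and 8.08 in line B and 8.35 and 8.41 in line A with tamoxifen, against 8.45 and 8.33 in line B and 8.73 and 8.76 in line A without, so it too was lowest in line B with tamoxifen and highest in line A without. Among the inhibitors, the first Cdkn1b probe set resembled Cdkn2c (r = 0.85) and Cdkn1c ran opposite to it (r = -0.87); these follow in part from their differences with tamoxifen. The neighbours of Cdkn2c on chromosome 4, 4930522H14Rik and Faf1, differed by -0.03 (SE 0.07) and 0.03 (SE 0.09) with tamoxifen.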
